A study of Homo sapiens with 12 samples.

Results

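The mRNA response to low oxygen was compared between 2 human lung cancer cell lines, A549, derived from a lung adenocarcinoma, and H460, derived from a lung large cell carcinoma. The comparison used 8 of the 12 RNA-seq libraries of the series, with 2 libraries for each line in normoxia and 2 for each line after 24 h in 1% oxygen, and another line, RKO (colorectal carcinoma), supplied 4 further libraries as an outside reference. For every gene the response of a line was the log2 ratio of hypoxia to normoxia, and the difference between the lines was the A549 response minus the H460 response, tested as a line-by-oxygen interaction. A positive difference therefore means that a gene rose more, or fell less, in A549. All 25369 genes of the count table were considered and 15228 passed the filter on low counts. The labels name no genetic change or agent besides oxygen in any group, each line stands for a single tumor, and A549 was grown in DMEM while H460 was grown in RPMI, so that line and medium cannot be told apart. The study called the replicates independent biological replicates.

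Cells sense oxygen mainly through prolyl hydroxylases of the EGLN family, which mark the alpha subunits of the hypoxia-inducible factors HIF1A and EPAS1 (HIF2A) for destruction while oxygen is present. When oxygen falls, the alpha subunits accumulate, pair with ARNT, bind short sites with the core letters ACGTG or GCGTG and raise genes for glycolysis, angiogenesis, pH control and matrix remodelling. Other oxygen-dependent enzymes, such as the JmjC histone demethylases, and slower changes in protein synthesis and cell division add to this response over a day of hypoxia. Both lung lines are known to carry inactivating KEAP1 mutations, which leave the antioxidant factor NRF2 active.

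The labels were checked against markers fixed for the lung epithelium and for other cell types. The epithelial keratins KRT8 and KRT18 were high in every library, at 364 CPM (counts scaled to library size) or more. KRT19, another epithelial keratin, was at 600 to 1182 CPM in H460 and at 0.814 CPM or less in A549. The adhesion genes EPCAM and CDH1 were present in A549, at 12.8 to 19.7 and 69.8 to 101 CPM, and stood at 0.524 CPM or less in H460. The surfactant genes SFTPA1, SFTPA2, SFTPB and SFTPC, which alveolar type II cells express, were at 0.112 CPM or less in all 8 libraries. The leukocyte and endothelial markers PTPRC, CD3E, MS4A1, PECAM1 and CDH5 reached at most 0.0864 CPM and VWF at most 0.216 CPM. Other markers of that set were present. CD68, a lysosomal gene of macrophages, was at 116 to 158 CPM in A549 and 19.6 to 42.2 CPM in H460. The stromal genes PDGFRB and COL3A1 were at 7.59 to 13.5 and 6.46 to 15.3 CPM in H460 and at 0.84 CPM or less in A549. Other stromal genes did not share this pattern. PDGFRA was at 0.474 to 0.862 CPM in A549 and at most 0.0332 CPM in H460. LUM was at 2.04 to 2.42 CPM in A549 and 1.30 to 2.63 CPM in H460, and DCN reached at most 0.0479 CPM. Of the neuroendocrine markers, NCAM1 was at 109.7 to 276.6 CPM and CHGA at 12.99 to 40.95 CPM in H460, against at most 1.51 and 0.524 CPM in A549. CHGB went the other way, at 3.82 to 6.08 CPM in A549 and 0.365 to 0.878 CPM in H460. SYP was at 3.38 to 4.52 CPM in A549 and 4.61 to 6.26 CPM in H460. These marker values use the deposited library totals, and all later CPM values are scaled by the trimmed mean of M-values (TMM).

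The libraries held 27350424 to 41757584 counts, and the replicates of H460 lay much closer to each other than those of A549. The coefficient of biological variation was 18.9% within A549 and 7.91% within H460. A549 hypoxia replicate 1 responded less than replicate 2. Over 64 HIF target genes, the median log2 level above the normoxia mean of A549 was 0.95 in replicate 1 and 1.64 in replicate 2, against 2.61 and 2.62 in the 2 H460 hypoxia libraries.

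Of the 15228 genes, 5232 (34.4%) had a response that differed between the lines at an adjusted p under 0.1 and more than 1.5-fold, while 6314 had an unadjusted p under 0.05. The response was higher in A549 for 2682 genes (17.6%) and lower for 2550 (16.7%). The counts of called genes in the lists below are read beside these shares. In 5163 of the 5232 the 4 possible hypoxia-normoxia differences of one line did not overlap those of the other, beside 58.6% of all genes. Most of the called genes moved in H460 and were not called in A549. Among the 2682, 2165 (80.7%) fell in H460 and were not called in A549, and among the 2550, 1953 (76.6%) rose in H460 and were not called in A549. Differences in size with the same direction were less common, with 233 genes that rose in both lines and rose more in H460 and 154 that fell in both and fell more in H460. Over all genes tested the SD of the response was 0.59 in A549 and 1.21 in H460 on the log2 scale. Across genes, which are not independent replicates, the responses of the lines had a Pearson correlation of 0.42.

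Within H460 3575 genes rose (23.5%) and 3812 fell (25%), whereas within A549 887 rose (5.82%) and 485 fell (3.18%). The A549 counts depended on which library was used. Without A549 hypoxia replicate 1 they were 1623 and 1269, without hypoxia replicate 2 they were 203 and 44, and with weights for sample quality they were 338 and 145. The interaction gave 4589 genes without hypoxia replicate 1, 5717 without hypoxia replicate 2 and 5232 with weights, and 3389 genes without H460 hypoxia replicate 1. TMM scaling factors were 1.07 and 1.09 in H460 normoxia and 0.81 and 0.85 in H460 hypoxia. With scaling by library size alone the median difference over all genes moved by 0.28, and the calls became 4203 higher and 1512 lower in A549, so that 73.5% were higher instead of 51.3%.

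**Figure D1:**
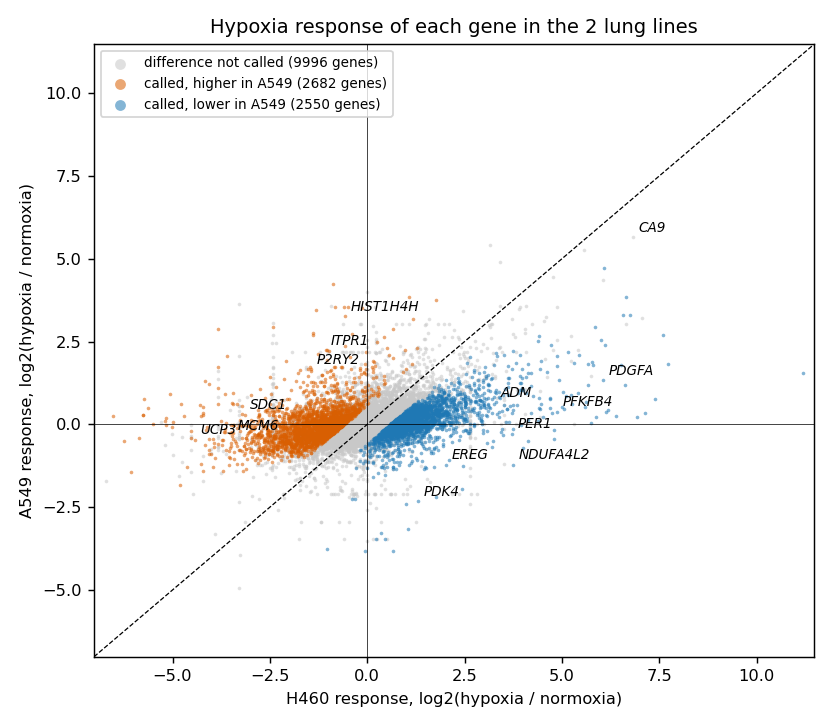
Each point is 1 of the 15228 genes, with its response (log2 ratio of hypoxia to normoxia) in H460 on the x axis and in A549 on the y axis, colored by the call on the difference, and the dashed line marks equal responses. The cloud is wider along the H460 axis (SD 1.21) than along the A549 axis (SD 0.59), and the called genes lie mainly near an A549 response of 0.

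The DNA replication list holds factors that license origins and build the fork, and also other genes such as E2F1 and RRM1. Of its 45 genes 37 had a higher response in A549 and none a lower one, beside 17.6% and 16.7% of all genes tested. The median response was -2.16 in H460 and -0.33 in A549, and 42 of the 45 genes fell in H460 while 2 did so in A549. MCM6, a subunit of the replicative helicase (chr2:136597196-136634047, GRCh37), was at 118 and 79.3 CPM in normoxia and 100.1 and 55.1 CPM in hypoxia in A549. In H460 it was at 142 and 147 CPM in normoxia and 12.9 and 13.2 CPM in hypoxia. Both H460 hypoxia libraries thus stood far below every other library, whereas the A549 groups overlapped, and the difference was 3.12 ± 0.37 (log2 ± SE, adjusted p = 7.71e-04). E2F1, a transcription factor that drives entry into S phase, was at 69.2 and 41.0 CPM in normoxia and 45.5 and 25.95 CPM in hypoxia in A549. In H460 it fell, with 70.0 and 80.6 CPM in normoxia and 5.50 and 5.78 CPM in hypoxia, a difference of 3.11 ± 0.41.

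CDC45, which joins the helicase to the fork (chr22:19467349-19508135), differed by 2.26 ± 0.25, with a response of -0.58 ± 0.18 in A549 and -2.83 ± 0.19 in H460. POLA1, the catalytic subunit of the primase-linked polymerase, differed by 1.51 ± 0.20. RRM1, the large subunit of ribonucleotide reductase, and POLD2, a subunit of polymerase delta, were not called, with differences of 0.46 ± 0.22 and 0.49 ± 0.18. The A549 libraries differed among themselves in this list. Relative to the A549 normoxia mean, the median level of the 45 genes was 0.25 and -0.25 in the normoxia libraries and -0.01 and -0.71 in the hypoxia libraries, against -2.06 and -2.05 in H460 hypoxia. Without A549 hypoxia replicate 1 the DNA replication list had 34 higher and 1 lower, and its median difference was 1.33 in place of 1.82.

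Genes of mitosis gave few calls. Of 44 genes for cyclins, kinases and the spindle 5 were higher in A549, 4 lower and 35 not called, with a median difference of 0.12. MKI67, the proliferation marker, had a difference of 0.31 ± 0.28, and TOP2A, the topoisomerase that untangles chromosomes, one of -0.05 ± 0.21. CDC25B, a phosphatase that starts mitosis, was lower in A549 (-1.04 ± 0.19), with 387 and 332 CPM in normoxia and 243 and 256 CPM in hypoxia in A549 and 212 and 185 CPM in normoxia and 294 and 272 CPM in hypoxia in H460. The direction of the mitosis median was not stable, at -0.07 without A549 hypoxia replicate 1 and -0.06 without A549 normoxia replicate 2, and with library size scaling 15 of the genes were called higher and 1 lower. Leaving out A549 normoxia replicate 1 also gave 15 higher, with 2 lower, and over the 8 libraries left out in turn 2 to 15 were higher and 1 to 7 lower.

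**Figure D2:**
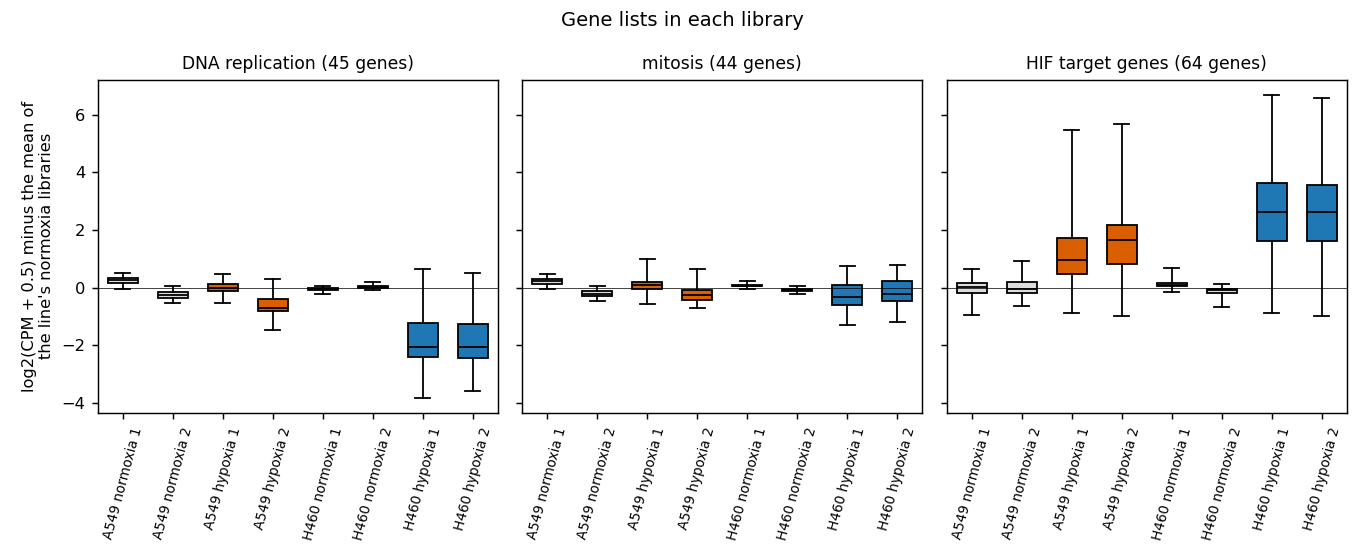
Boxes show, for each of the 8 libraries, the level of the genes of 3 lists as log2(CPM + 0.5) minus the mean of the normoxia libraries of the same line, with the line at the median, the box at the quartiles and whiskers at the extremes. DNA replication falls to medians of -2.06 and -2.05 in H460 hypoxia, mitosis has hypoxia medians between -0.33 and 0.09, and HIF target genes rise to 2.61 and 2.62 in H460 and to 0.95 and 1.64 in A549.

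The RefSeq promoter windows of these genes are shown because their members moved together. In the 250 bases before the start (GRCh38.p14), the 8-letter E2F motifs TTTGGCGC and TTTCGCGC were searched on both strands, where they can overlap each other, and were found in 8 of the 40 DNA replication genes with a promoter in the table (20%). Over all tested genes with a promoter, 163 of 10788 held one (1.51%), and none of 37 mitosis genes did. Among genes called higher in A549 49 of 1885 held one (2.60%), and among those called lower 23 of 1901 (1.21%). None of 61 ribosome biogenesis genes held one. The motifs were chosen after the values were seen, and a role of E2F factors was not tested. MCM6 (chr2:135876444-135876693, minus strand) held 4 matches, overlapping in pairs at 2 places and marked in capitals, and CDC45 (chr22:19479670-19479919, plus strand) held no exact match. The CDC45 window does hold TTTGGCGG, which differs from a searched motif in its last letter. Only exact letters were searched, so a window without a match may still hold an E2F site.
MCM6: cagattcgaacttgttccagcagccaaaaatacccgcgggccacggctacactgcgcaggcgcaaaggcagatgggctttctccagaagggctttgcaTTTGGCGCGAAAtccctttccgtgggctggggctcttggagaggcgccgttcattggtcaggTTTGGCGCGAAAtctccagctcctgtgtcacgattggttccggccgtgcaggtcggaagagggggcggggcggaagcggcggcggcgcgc
CDC45: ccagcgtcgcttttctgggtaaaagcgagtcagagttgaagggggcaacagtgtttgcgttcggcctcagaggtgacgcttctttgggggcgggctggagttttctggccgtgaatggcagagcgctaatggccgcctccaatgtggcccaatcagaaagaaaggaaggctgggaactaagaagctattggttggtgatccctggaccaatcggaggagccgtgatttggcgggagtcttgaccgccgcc

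Ribosome biogenesis, the making of ribosomal RNA and its assembly, was the next list by count. Of 72 genes 34 were higher in A549 and 2 lower, and the median response was -0.54 in A549 and -1.12 in H460. In this list 54 genes fell in H460 and 20 fell in A549. UBTF, the factor that opens ribosomal DNA for polymerase I, was at 134 and 127 CPM in normoxia and 137 and 122 CPM in hypoxia in A549 and at 125 and 117 CPM in normoxia and 39.3 and 45.4 CPM in hypoxia in H460, so that the H460 groups were apart and the A549 groups overlapped (1.504 ± 0.18). NOLC1, a nucleolar chaperone, fell in H460 (-2.09 ± 0.20) and had -0.59 ± 0.20 in A549, a difference of 1.497 ± 0.28. NOB1, which trims the small subunit RNA, went the other way (-1.32 ± 0.21), and PPAN was the only other gene called lower. DDX21, an RNA helicase of the nucleolus, fell in both lines and its difference of 0.28 ± 0.21 was not called. Without H460 hypoxia replicate 1 the list had 17 higher and 2 lower, without A549 hypoxia replicate 1 it had 18 and 4, and with library size scaling 46 and 2. Leaving out A549 normoxia replicate 2, H460 normoxia replicate 1, H460 normoxia replicate 2 or H460 hypoxia replicate 2 gave 22, 19, 18 and 20 higher.

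Cytosolic ribosomal protein genes gave no such count. Of 81 tested, 76 had a lower response in A549, though by little (median difference -0.39), and 6 were called lower and 2 higher. RPS2 was at 1932 and 1859 CPM in normoxia and 1964 and 2205 CPM in hypoxia in A549 and 2481 and 2326 CPM in normoxia and 4184 and 4044 CPM in hypoxia in H460 (difference -0.64 ± 0.17). These 6 calls did not hold under library size scaling, where 4 genes were called higher and none lower and the median was -0.11. They numbered 14 without A549 normoxia replicate 2 and 11 without A549 hypoxia replicate 2, 1 without A549 normoxia replicate 1, and 2 without A549 hypoxia replicate 1, H460 normoxia replicate 2 or H460 hypoxia replicate 1. Genes of this family have many pseudogenes, so that their counts are uncertain.

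Among 80 oxidative phosphorylation genes 14 (17.5%) were higher in A549 and 1 (1.25%) lower, with medians of -0.05 in A549 and -0.29 in H460. The share of higher genes was thus near the 17.6% of all genes, and the share of lower genes was below 16.7%. ATP5G1, a ring subunit of ATP synthase, differed by 1.71 ± 0.33. The exception was NDUFA4L2, a HIF-induced relative of a cytochrome oxidase subunit that was part of the list. It was at 0.648 and 3.39 CPM in normoxia and 0.973 and 0.746 CPM in hypoxia in A549 and rose in H460, with 7.10 and 5.47 CPM in normoxia and 74.9 and 93.5 CPM in hypoxia, a difference of -4.96 ± 0.75. Library size scaling gave 33 higher and 1 lower, and leaving out H460 hypoxia replicate 1 gave 9 and 1. Of 77 mitochondrial ribosomal protein genes 19 were higher and 5 lower. This list had 37 higher and 3 lower with library size scaling, and leaving out A549 hypoxia replicate 1 or H460 hypoxia replicate 1 gave 8 higher, H460 normoxia replicate 1 gave 9, H460 normoxia replicate 2 gave 11 and A549 normoxia replicate 2 gave 12. MRPS6 rose in A549 (0.94 ± 0.16) and fell in H460 (-1.01 ± 0.17). Of 31 proteasome genes 9 were higher and 1 lower, among them PSMB3 at 0.95 ± 0.20. The proteasome count was 5 higher and 1 lower without A549 hypoxia replicate 1, 4 and 0 without H460 normoxia replicate 1, and 14 and 0 with library size scaling. The cytosolic chaperones had 4 of 26 called (15.4%), all higher in A549 (HSP90AA1, HSPE1, CCT5 and AHSA1), a share below the 17.6% of all genes. The calls of HSP90AA1 (1.40 ± 0.43) and AHSA1 depended on single libraries. Without A549 hypoxia replicate 1 the median difference of the list was 0.07 in place of 0.31. Library size scaling gave 10 calls. The chaperone count was 12 without A549 normoxia replicate 1 and 10 without A549 hypoxia replicate 2.

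HIF target genes had lower responses in A549. Of the 64 tested 38 had a lower response in A549 and 1 a higher one, beside 16.7% and 17.6% of all genes. Most rose in both lines, with 57 called higher in H460, 46 in A549 and 45 in both, and the median response was 2.58 in H460 and 1.40 in A549. The median log2 ratio of the A549 to the H460 level over these genes was -0.21 in normoxia and -1.42 in hypoxia. Without A549 hypoxia replicate 1 the list had 36 lower and 5 higher and a median difference of -0.86, and without hypoxia replicate 2 it had 47 lower, 2 higher and -1.45, against -1.14 with all libraries.

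PFKFB4, a kinase that sets the level of a glycolysis activator (chr3:48555117-48594227), was at 18.4 and 12.1 CPM in normoxia and 463 and 434 CPM in hypoxia in H460. In A549 it was at 84.8 and 37.7 CPM in normoxia and 75.4 and 84.3 CPM in hypoxia, so that its 2 groups overlapped there, and the difference was -4.50 ± 0.46 (adjusted p = 4.18e-04). P4HA2, a collagen prolyl hydroxylase (chr5:131528304-131563556), was at 83.1 and 65.4 CPM in normoxia and 168 and 231 CPM in hypoxia in A549 and at 34.6 and 26.8 CPM in normoxia and 563 and 476 CPM in hypoxia in H460, and so rose in both lines, by 1.43 ± 0.20 and 4.08 ± 0.22. BNIP3L, a receptor for removal of mitochondria, rose by 1.82 ± 0.18 in A549 and 4.14 ± 0.20 in H460, and INSIG2, which holds back sterol synthesis, by 1.12 ± 0.19 and 3.60 ± 0.20. ADM, the vasodilator adrenomedullin, was at 36.8 and 49.8 CPM in normoxia and 45.0 and 92.8 CPM in hypoxia in A549 and 7.72 and 7.52 CPM in normoxia and 72.8 and 76.9 CPM in hypoxia in H460. Its A549 groups overlapped, its H460 groups were far apart, and the difference was -2.63 ± 0.41.

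Several standard hypoxia markers rose in both lines without a called difference. CA9, the carbonic anhydrase of hypoxic tumors, rose by 5.65 ± 0.46 in A549 and 6.81 ± 0.50 in H460 (difference -1.17 ± 0.60, adjusted p = 0.17). VEGFA, the angiogenic growth factor, rose by 1.62 ± 0.33 and 1.505 ± 0.33, with a difference of 0.11 ± 0.45. LDHA, which makes lactate, had a difference of 0.18 ± 0.20. NDRG1, a stress gene, differed by -1.37 ± 0.48 (adjusted p = 0.057), a call that was lost without A549 normoxia replicate 2, either H460 normoxia library or H460 hypoxia replicate 1, with library size scaling and in DESeq2. HMOX1, the heme-degrading enzyme that NRF2 also controls, was the 1 target with a higher response in A549. It rose there (366 and 324 CPM in normoxia and 509 and 592 CPM in hypoxia) and fell in H460, with 47.9 and 44.9 CPM in normoxia and 27.1 and 26.5 CPM in hypoxia, a difference of 1.47 ± 0.18.

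Promoter windows are shown for the 2 HIF target genes with the smallest p among those lower in A549. HMOX1 had no entry in the table. Within 250 bases before the start the letters ACGTG or GCGTG, on either strand, occurred in 39 of 50 HIF target genes with a promoter (78%), in 56.4% of all tested genes with one, in 60.8% of those called lower in A549 and in 55% of those called higher. They also occurred in 44 of 61 ribosome biogenesis genes (72.1%) and 26 of 40 DNA replication genes (65%), lists with higher responses in A549. The shares were 68.75% for the circadian clock, 56.8% for mitosis and 42.9% for NF-kB feedback. PFKFB4 (chr3:48556804-48557053, minus strand) held 1 match, in capitals, beginning 166 bases before the start, and P4HA2 (chr5:132227092-132227341, minus strand) held none in this window.
PFKFB4: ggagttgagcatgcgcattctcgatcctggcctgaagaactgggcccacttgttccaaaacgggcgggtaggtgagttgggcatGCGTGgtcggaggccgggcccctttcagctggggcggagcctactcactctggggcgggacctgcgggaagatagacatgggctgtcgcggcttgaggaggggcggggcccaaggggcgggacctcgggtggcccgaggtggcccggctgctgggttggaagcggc
P4HA2: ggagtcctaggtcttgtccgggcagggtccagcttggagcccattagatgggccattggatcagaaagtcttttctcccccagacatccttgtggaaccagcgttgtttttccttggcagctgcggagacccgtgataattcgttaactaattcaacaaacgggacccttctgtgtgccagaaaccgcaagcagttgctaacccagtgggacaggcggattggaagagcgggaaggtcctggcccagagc

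The regulators of the pathway differed as well. Of 18 genes tested 9 had a lower response in A549 and 1, ARNT2, a higher one. HIF1A mRNA fell in A549, with 450.1 and 543 CPM in normoxia and 266 and 179 CPM in hypoxia, and was at 322 and 308 CPM in normoxia and 319 and 261 CPM in hypoxia in H460. The A549 groups did not overlap and the H460 groups did (difference -1.04 ± 0.27, adjusted p = 0.019). EPAS1, the HIF2A subunit, rose in H460 (114 and 103.3 CPM in normoxia and 306 and 284 CPM in hypoxia) and was at 352 and 418 CPM in normoxia and 283 and 447 CPM in hypoxia in A549, a difference of -1.52 ± 0.28. ARNT, the shared partner, rose by 1.71 ± 0.15 in H460 and had 0.17 ± 0.14 in A549. EGLN1, the main oxygen sensor, differed by -1.35 ± 0.21, and CITED2, which competes with HIF for its coactivators, by -2.36 ± 0.20. EP300, such a coactivator, was not called, and library size scaling left 6 of the 18 lower and 4 higher.

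Among enzymes of sugar use, 7 of 21 glycolysis genes and 8 of 22 glycogen genes were lower in A549 and none were higher. ENO2, an enolase, was at 33.8 and 30.4 CPM in normoxia and 1240.1 and 1043 CPM in hypoxia in H460 and at 89.4 and 65.0 CPM in normoxia and 249.7 and 458 CPM in hypoxia in A549, a rise in both lines and a difference of -2.95 ± 0.37. GAPDH rose by 0.73 ± 0.15 in A549 and 2.14 ± 0.16 in H460. PKM, which makes pyruvate, and ENO1 were not called, with differences of 0.05 ± 0.20 and -0.13 ± 0.18. With library size scaling the counts were 4 lower and 2 higher for glycolysis and 5 and 3 for glycogen. PYGL, liver glycogen phosphorylase, differed by -1.52 ± 0.31, and UGP2, which makes the glycogen precursor, by -1.28 ± 0.17.

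**Figure D3:**
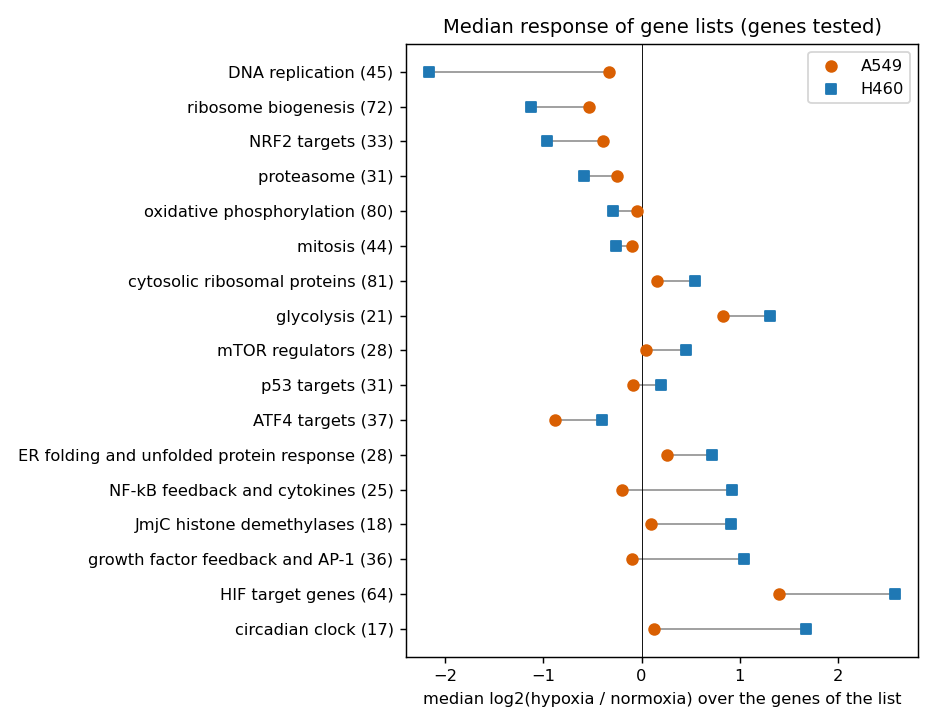
Circles and squares give the median log2 ratio of hypoxia to normoxia over the genes of 17 chosen lists in A549 and H460, with the number of genes tested in parentheses. H460 lies farther from 0 than A549 for 16 of the lists shown, DNA replication at -2.16 against -0.33 and HIF target genes at 2.58 against 1.40 among them, and ATF4 targets are the exception. Among lists not drawn, A549 lay farther from 0 for others, such as the aminoacyl-tRNA synthetases (-0.62 against -0.16) and the cell surface proteoglycans (0.37 against -0.08).

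The study's own list of genes transactivated within 90 min of hypoxia in HCT116 colon cells, from nascent RNA and so not from these libraries, was examined in the same way. Of 691 tested 313 (45.3%) had a lower response in A549 and 44 (6.37%) a higher one, beside 16.7% and 17.6% of all genes. The median response was 0.38 in A549 and 1.09 in H460. Among the 402 whose mRNA also rose in HCT116, 232 were lower and 7 higher. This set had 408 genes before the filter, fewer than the acute response genes that the study defines from nascent RNA and mRNA. The study called HIF1A peaks by ChIP-seq in both lung lines, and the 691 genes were split by them. Genes with a proximal peak in both lines had 87 of 147 lower and 3 higher, with a median difference of -0.94. Those with a peak in H460 and not A549 had 60 of 106 lower and 4 higher (-0.88), and those with a peak in A549 and not H460 had 22 of 53 lower and 4 higher (-0.65). Those with neither had 144 of 385 lower and 33 higher (-0.53).

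The circadian clock genes had a median difference of -1.39. Of 17 genes 12 were lower in A549 and none higher, and 14 rose in H460 while none were called in A549. PER1, a repressor of the clock (chr17:8043788-8055753), was at 14.1 and 19.6 CPM in normoxia and 9.29 and 18.4 CPM in hypoxia in A549 and at 26.7 and 25.1 CPM in normoxia and 362 and 318 CPM in hypoxia in H460, where the groups lay far apart, and differed by -4.00 ± 0.39 (adjusted p = 3.58e-04). NFIL3, a repressor of clock output, was at 19.5 and 29.9 CPM in normoxia and 20.6 and 33.5 CPM in hypoxia in A549 and at 13.6 and 13.3 CPM in normoxia and 70.3 and 77.97 CPM in hypoxia in H460, a difference of -2.33 ± 0.35. RORA, an activator of ARNTL that is also in the HIF list, rose in H460 (57.1 and 66.2 CPM in normoxia and 488 and 439.9 CPM in hypoxia) and was at 1.02 CPM or less in every A549 library. DBP differed by -3.16 ± 0.59. CRY1 and BHLHE40 were not called, with differences of -0.41 ± 0.30 and -1.01 ± 0.56, and the BHLHE40 levels of A549 were widely spread (127 and 235 CPM in normoxia and 162 and 455 CPM in hypoxia).

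The JmjC histone demethylases, which use oxygen as a substrate, had 13 of 18 genes lower in A549 and none higher. JMJD6 rose in H460, with 29.6 and 22.1 CPM in normoxia and 129.9 and 123 CPM in hypoxia, and was at 54.1 and 29.2 CPM in normoxia and 47.3 and 47.6 CPM in hypoxia in A549 (-2.10 ± 0.35). KDM5B, which removes methyl groups from histone H3 lysine 4, differed by -1.98 ± 0.30, and KDM3A, a known HIF target, by -1.66 ± 0.29, having risen in both lines (1.202 ± 0.21 and 2.87 ± 0.22). KDM3B and PHF2 were not called. Under library size scaling 7 of the 18 were called lower, and 4 in the fit to log2(RPKM + 0.1).

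Of 36 genes of growth factor feedback and the AP-1 factors 17 were lower in A549 and 3 higher, with median responses of -0.10 in A549 and 1.05 in H460. FOSL2, an AP-1 subunit, rose in H460 (1.60 ± 0.13) and had -0.51 ± 0.12 in A549. FOSL1, a related subunit, fell in A549 and rose in H460, with 147 and 119 CPM in normoxia and 87.3 and 70.8 CPM in hypoxia in A549 and 26.95 and 27.4 CPM in normoxia and 46.7 and 47.4 CPM in hypoxia in H460. DUSP4, a phosphatase that turns off MAP kinases, differed by -1.46 ± 0.17 and TGFA, a ligand of the EGF receptor, by -2.47 ± 0.32. ERRFI1, an inhibitor of that receptor, was not called (-1.199 ± 0.55).

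Of 25 genes of NF-kB feedback and cytokines 11 were lower in A549 and 2, CCL2 and CSF1, higher. NFKB2, a precursor of the p52 subunit (chr10:104153867-104162286), was at 110.3 and 136 CPM in normoxia and 106 and 99.2 CPM in hypoxia in A549 and at 43.5 and 38.8 CPM in normoxia and 274 and 226 CPM in hypoxia in H460 (-2.86 ± 0.21, adjusted p = 1.40e-04). RELA, the main activating subunit, rose in H460 by 2.55 ± 0.18 and had 0.11 ± 0.17 in A549. BIRC3, an inhibitor of cell death, rose in H460 by 2.47 ± 0.26 from a low level. CSF1, the macrophage growth factor, fell in H460, with 26.6 and 25.3 CPM in normoxia and 4.89 and 4.77 CPM in hypoxia, and was at 96.3 and 83.8 CPM in normoxia and 86.4 and 85.1 CPM in hypoxia in A549 (2.36 ± 0.19). TNFAIP2, a gene induced by tumor necrosis factor, was not called in either line and had a difference of 0.04 ± 0.17.

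Of 28 genes of endoplasmic reticulum folding 14 were lower in A549 and 1, CRELD2, higher. HERPUD1, which aids removal of misfolded proteins, was at 53.1 and 71.0 CPM in normoxia and 69.2 and 73.1 CPM in hypoxia in A549 and rose in H460 (183 and 154 CPM in normoxia and 846 and 771 CPM in hypoxia), a difference of -2.07 ± 0.23. PDIA3, a disulfide isomerase, was not called (0.00 ± 0.19), and library size scaling gave 8 lower and 2 higher. Of 31 p53 targets 11 were lower and 2, TNFRSF10C and C12orf5, higher. CDKN1A, the p21 inhibitor of cyclin-dependent kinases, rose in H460 (46.6 and 37.9 CPM in normoxia and 175 and 145 CPM in hypoxia) and was at 223.3 and 135 CPM in normoxia and 159 and 167 CPM in hypoxia in A549 (-2.06 ± 0.31). BBC3, which encodes the death protein PUMA, differed by -1.65 ± 0.21, and library size scaling gave 7 lower and 4 higher. The p53 list had 6 lower and none higher without H460 hypoxia replicate 1, 7 and 1 without H460 normoxia replicate 1, and 7 and 3 without A549 normoxia replicate 1.

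ATF4 targets, the amino acid stress genes, had median responses of -0.88 in A549 and -0.40 in H460, with 12 of 37 lower and 2, CLGN and PSPH, higher. The A549 normoxia libraries themselves stood apart here, at -0.61 and 0.61 relative to their mean. Without A549 normoxia replicate 2 the median difference of the list turned from -0.55 to 0.23, with 10 genes higher and 7 lower. The list had 23 lower without A549 normoxia replicate 1, and 7 lower without H460 normoxia replicate 1 or H460 hypoxia replicate 1. ATF4 itself was at 252 and 332 CPM in normoxia and 180.5 and 196 CPM in hypoxia in A549 and 797 and 821 CPM in normoxia and 1251 and 1122 CPM in hypoxia in H460 (-1.19 ± 0.21). SHMT2, a mitochondrial enzyme of serine use, rose in H460 by 1.14 ± 0.14 and differed by -1.498 ± 0.19.

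Of 33 NRF2 targets 21 fell in H460 and 13 in A549, and 1 of them, HMOX1, rose in A549. In the difference 11 were higher in A549 and 3, FTH1, NFE2L2 and ABCC1, lower, and the median response was -0.39 in A549 and -0.96 in H460. EPHX1, a detoxifying epoxide hydrolase, fell in both lines, with 453 and 339 CPM in normoxia and 70.6 and 76.3 CPM in hypoxia in H460 and 98.5 and 80.6 CPM in normoxia and 54.2 and 52.3 CPM in hypoxia in A549 (1.68 ± 0.23). GCLM, a subunit of the glutathione-making ligase, differed by 1.39 ± 0.22. FTL, a ferritin chain, and TKT, a transketolase, were not called, and library size scaling gave 18 higher and 1 lower.

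Of 18 cell surface proteoglycan genes 4 (22.2%) were higher in A549 and 3 (16.7%) lower, shares near the 17.6% and 16.7% of all genes. Their median difference turned from 0.13 to -0.24 without A549 hypoxia replicate 1. SDC1, the heparan sulfate carrier syndecan-1 (chr2:20400558-20425194), was at 275 and 189 CPM in normoxia and 281 and 287 CPM in hypoxia in A549 and fell in H460 (99.5 and 83.4 CPM in normoxia and 9.497 and 11.2 CPM in hypoxia), a difference of 3.43 ± 0.27. SDC3 differed by 1.97 ± 0.22, whereas SDC4 went the other way (-1.16 ± 0.24). PPP2R5B, a regulatory subunit of protein phosphatase 2A, rose in both lines, with 6.69 and 5.53 CPM in normoxia and 248.6 and 213 CPM in hypoxia in H460 and 17.6 and 14.7 CPM in normoxia and 24.5 and 35.3 CPM in hypoxia in A549, a difference of -4.36 ± 0.28. The 15 tested subunits had 2 lower (13.3%) and 1 higher (6.67%), shares below the 16.7% and 17.6% of all genes.

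Of the lists for sterol, fatty acid and lipid droplet genes, 8 of 24, 4 of 17 and 5 of 20 were lower in A549 and 3, 4 and 2 higher. The shares were 33.3%, 23.5% and 25% lower and 12.5%, 23.5% and 10% higher, beside 16.7% and 17.6% of all genes. Library size scaling turned the sterol count to 4 lower and 6 higher and gave 3 lower and 7 higher for fatty acids. The sterol list had 5 lower without A549 normoxia replicate 1, either H460 normoxia library or H460 hypoxia replicate 2, and 4 without H460 hypoxia replicate 1, and the lipid droplet list had 3 lower without H460 normoxia replicate 1 or H460 hypoxia replicate 2. HMGCS1, an early enzyme of the sterol pathway, differed by -1.73 ± 0.28 and EBP, a late one, by 1.44 ± 0.24. ACACA, which makes malonyl-CoA, fell in H460 (-1.35 ± 0.13) and differed by 1.28 ± 0.18, while ACSS2, which recaptures acetate, rose there (2.10 ± 0.15) and differed by -1.90 ± 0.20. PLIN2, a lipid droplet coat protein, rose in both lines and differed by -2.30 ± 0.30. Of 27 epithelial and mesenchymal genes 8 (29.6%) were lower in A549 and 3 (11.1%) higher. Their median difference was -0.09, and 0.19 with library size scaling, so the list had no stable direction. Among its members VIM, the mesenchymal filament vimentin, rose by 0.89 ± 0.16 in A549 and 2.08 ± 0.16 in H460, and SNAI2, a repressor of epithelial genes, by 2.88 ± 0.28 in H460. In the collagen enzyme list 5 of 20 were lower and none higher, namely P4HA1, P4HA2, P4HB, PLOD2 and LOXL2, and library size scaling left 3 lower and 2 higher, as 3 were left without H460 normoxia replicate 2 or H460 hypoxia replicate 1.

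The MYC network had 5 of 12 genes lower in A549 and none higher, the partners and antagonists MXD1, MAX, MNT, MXI1 and MLX, while MYC itself was not called (0.22 ± 0.26), and library size scaling gave 4 lower and 2 higher. The counts of the next lists are read beside 17.6% higher and 16.7% lower among all genes, and some lay close to these shares, such as 15.4% and 17.9% for interferon-stimulated genes. Counts of higher and lower genes were 5 and 9 of 45 for matrix and integrins, 5 and 8 of 39 for TGF-beta signalling, 6 and 7 of 39 for interferon-stimulated genes, 3 and 8 of 27 for epithelial and mesenchymal genes, 5 and 11 of 28 for mTOR regulators, 2 and 7 of 18 for the BCL2 family, 1 and 11 of 39 for autophagy and lysosome, 9 and 5 of 23 for Wnt and Notch feedback, 4 and 3 of 21 for calcium handling, 6 and 9 of 27 for gluconeogenesis and PPAR targets and 3 and 6 of 20 for aminoacyl-tRNA synthetases. Library size scaling turned the larger side of 4 of these lists, with 8 higher and 5 lower for matrix and integrins, 10 and 5 for TGF-beta signalling, 10 and 4 for interferon-stimulated genes and 4 and 3 for the synthetases. It left autophagy and lysosome at 2 higher and 4 lower and mTOR regulators at 5 and 7. Leaving out H460 hypoxia replicate 1 gave 4 lower for autophagy and lysosome and for the BCL2 family, and leaving out H460 normoxia replicate 2 gave 6 for autophagy and lysosome. Matrix and integrins had 14 lower without A549 hypoxia replicate 2, TGF-beta signalling 4 lower without A549 normoxia replicate 2 and 5 without H460 normoxia replicate 2 or either H460 hypoxia library, and the synthetases 3 lower without A549 normoxia replicate 2, H460 normoxia replicate 1 or H460 hypoxia replicate 1.

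In 80 genes (0.525%) the lines were called in opposite directions and the difference was called. Of these 58 rose in A549 and fell in H460, and 22 fell in A549 and rose in H460. The total was 142 without A549 hypoxia replicate 1, 17 without hypoxia replicate 2 and 30 with sample quality weights, so that it rested on these libraries. ITPR1, a calcium release channel of the endoplasmic reticulum (chr3:4535032-4889524), rose in A549 and fell in H460. It was at 12.8 and 12.2 CPM in normoxia and 49.7 and 67.96 CPM in hypoxia in A549 and 68.8 and 67.4 CPM in normoxia and 31.1 and 33.8 CPM in hypoxia in H460 (3.30 ± 0.23, adjusted p = 1.02e-04), and its groups were apart in both lines. P2RY2, a receptor for extracellular ATP, rose in A549 (18.6 and 15.1 CPM in normoxia and 39.1 and 68.1 CPM in hypoxia) and was under 1 CPM in H460. PODXL, the sialomucin podocalyxin, had responses of 1.47 ± 0.26 in A549 and -1.52 ± 0.30 in H460. LYPD6, C1QL1 and KCNC4 completed the 6, with differences of 3.20, 3.08 and 2.84.

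PDK4, a kinase that keeps pyruvate out of the mitochondria (chr7:95212809-95225925), fell in A549 and rose in H460. It was at 67.2 and 58.2 CPM in normoxia and 13.3 and 11.9 CPM in hypoxia in A549 and at 66.8 and 51.7 CPM in normoxia and 133 and 158 CPM in hypoxia in H460, a difference of -3.61 ± 0.24 (adjusted p = 1.00e-04). PPARGC1A, the coactivator of mitochondrial genes, followed with -1.36 ± 0.21 in A549 and 1.47 ± 0.19 in H460. EREG, the EGF receptor ligand epiregulin, had a response of -1.21 ± 0.30 in A549 and of 2.02 ± 0.37 in H460, where it was at 8.72 CPM or less. NR4A3, an orphan nuclear receptor, differed by -3.01 ± 0.41 and EMP1, a membrane protein, by -2.10 ± 0.28. CRYBB2P1, a pseudogene that can share reads with CRYBB2, differed by -2.54 ± 0.22.

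**Figure D4:**
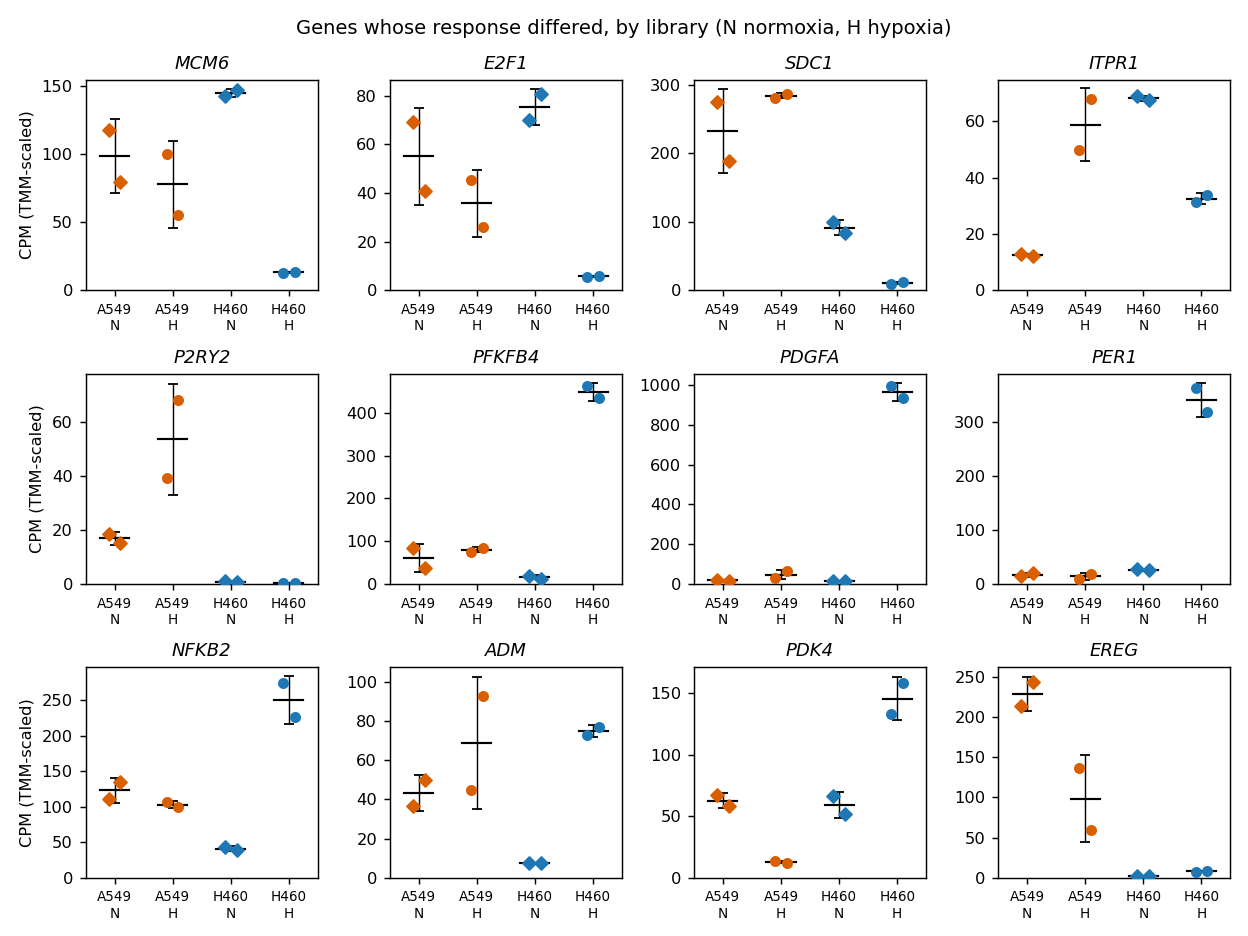
CPM (TMM-scaled) of 12 genes in each library, with diamonds for normoxia (N), circles for hypoxia (H), the mean as a horizontal bar and the SD of 2 libraries as the error bar. In MCM6, E2F1 and SDC1 the H460 hypoxia points lie lowest, in PFKFB4, PDGFA, PER1 and NFKB2 they lie highest, and ITPR1 and PDK4 cross between the lines.

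By size alone, the 8 genes with the highest difference among those with enough counts were MFAP3L, RPS6KL1, RHBDL3, UCP3, HIST1H4H, FAM111B, LRRN2 and PSEN2, from 4.96 down to 3.52. In 7 of them the H460 response lay between -6.06 and -3.22. MFAP3L, a membrane protein, was at 20.3 and 16.5 CPM in normoxia and 23.9 and 20.01 CPM in hypoxia in A549 and at 5.76 and 6.95 CPM in normoxia and 0.204 and 0.270 CPM in hypoxia in H460. HIST1H4H, a histone H4 gene, was the exception, with a rise in A549 of 3.27 ± 0.40 and -0.56 ± 0.44 in H460. Canonical histone mRNAs lack a poly(A) tail, and the libraries were made from poly(A)+ RNA.

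The 8 lowest differences were those of ISM2, NDUFA4L2, PDGFA, ITGA2B, WDR66, PFKFB4, CAPN12 and NRN1. ISM2 was under 0.11 CPM in H460 normoxia, so that its fitted difference of -5.92 depends on the prior count. PDGFA, a growth factor for mesenchymal cells (chr7:536897-559481), was at 15.2 and 13.8 CPM in normoxia and 996 and 934 CPM in hypoxia in H460 and 20.2 and 16.8 CPM in normoxia and 30.2 and 63.4 CPM in hypoxia in A549, a rise in both lines that differed by -4.72 ± 0.40. ITGA2B, the platelet integrin subunit, was at 6.82 and 3.69 CPM in normoxia and 200.3 and 202 CPM in hypoxia in H460 and 4.79 and 5.25 CPM in normoxia and 6.12 and 9.18 CPM in hypoxia in A549. NRN1, a neurite growth protein, rose in H460 by 5.00 ± 0.28 and CAPN12, a calpain protease, by 5.68 ± 0.34. WDR66 rose there by 4.13 ± 0.19 and had -0.49 ± 0.20 in A549.

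The RKO libraries were not used in the difference and gave an outside response for comparison. Of the 5232 called genes 4581 were tested in RKO, and for 3347 of them (73.1%) the RKO response lay nearer to that of A549. Most called genes moved in H460 and were not called in A549, so even a weak RKO response counted as nearer to A549. The share depends on that choice of genes and does not measure how alike RKO and A549 are. Among genes higher in A549 the median responses were -0.25 in RKO, -0.13 in A549 and -1.24 in H460, and among genes lower in A549 they were 0.29, 0.05 and 1.07. Of the 28 genes chosen by size or by opposite direction, 22 were tested in RKO and 16 lay nearer to A549. That count has the same limit, because these genes were chosen by the difference too. Among individual genes, the RKO response of MCM6 was -0.80 and that of CDC45 -0.69. ITPR1 had 3.17 in RKO, on the side of A549, whereas PFKFB4 (3.03) and RORA (2.86) lay on the side of H460. For PER1 the RKO value was 0.83 and for PDK4 0.16, between the lung lines.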

How the data were processed

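RNA-seq of A549 and H460 cells in normoxia or 24 h of 1% oxygen was analysed, with 2 libraries per group. Per the submitters' processing notes and the study's methods, the authors trimmed single-end reads from stranded poly(A)+ libraries, aligned them to hg19 with TopHat2 2.0.13, removed reads of low mapping quality with SAMtools, marked duplicates with Picard 1.129 and counted reads per gene with HTSeq 0.6.1 on the reverse strand. The authors deposited raw counts per gene. They also deposited RPKM values, which were used only as an alternative, and the authors' columns of fold changes and p-values were not used. The study's list of HCT116 genes and its HIF1A peak assignments, from other experiments, served as gene lists.

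The difference was tested with the edgeR 4.0.16 quasi-likelihood F test (R 4.3.3) on the 8 libraries, scaled by TMM and without covariates, after dropping genes that did not exceed 0.5 CPM in 2 or more of them. A gene was called at a Benjamini-Hochberg adjusted p under 0.1 and a change over 1.5-fold. Errors are SE (|log2 change| over the square root of F) for log2 values. Because A549 varied more than H460, the shared spread is too small for A549 alone. Alternatives used limma 3.58.1 and DESeq2 1.42.0, other scalings, filters and thresholds, thinned counts, replicate blocks and each library left out. The code was tested on simulated counts. In these, 100 genes differed at each size, all with a mean of at least 100 counts, and every other gene responded alike in both lines. A true log2 difference of 1 was called in the right direction for 36 of 100 genes and one of 2 for 93 of 100. Among the unchanged genes 3 were called. In the data 5232 genes were called, so the adjusted p threshold was less strict there. These shares check the code and do not give the power of the real test. A gene that was not called may still differ. RKO was fitted alone.

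Named genes were the 8 largest and 8 lowest called differences with a mean of at least 100 counts, at least 10 counts in every library of 1 oxygen condition in each line and non-overlapping library differences, up to 6 per direction with opposite calls, up to 4 called and 2 not called per list, HIF1A, EPAS1, CA9, NDRG1, VEGFA and ADM, and called members of lists with few calls. The 2 replication promoters and the E2F search were chosen after values were seen. The members and lists were chosen with earlier results of these data known, and lists were given no set test. Promoter sequences are from RefSeq (GRCh38.p14), matched by symbol for 10788 of 15228 genes, and gene positions are the GRCh37 ones of the deposited table. Total counts of 27350424 to 41757584 set the precision. P-values rest on the spread between the 2 cultures of a group, pooled over the groups and shared across genes, and not on the spread within 1 line.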

Additional observations from a re-analysis of the deposited data

Results flagged for a closer look

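The response to hypoxia differed between A549 and H460 by a test of the difference itself for 5232 genes, and the 32 of them named by size, by opposite direction or as pathway genes are listed here with the A549 minus H460 difference on the log2 scale. The highest values were those of MFAP3L (4.96), RPS6KL1 (4.60), RHBDL3 (4.53), UCP3 (3.97), HIST1H4H (3.83), FAM111B (3.66), LRRN2 (3.54) and PSEN2 (3.52). The lowest values were those of ISM2 (-5.92), NDUFA4L2 (-4.96), PDGFA (-4.72), ITGA2B (-4.67), WDR66 (-4.63), PFKFB4 (-4.50), CAPN12 (-4.48) and NRN1 (-4.47).

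Genes that rose in A549 and fell in H460 were ITPR1 (3.30), LYPD6 (3.20), P2RY2 (3.10), C1QL1 (3.08), PODXL (2.98) and KCNC4 (2.84). Genes that fell in A549 and rose in H460 were PDK4 (-3.61), EREG (-3.23), NR4A3 (-3.01), PPARGC1A (-2.83), CRYBB2P1 (-2.54) and EMP1 (-2.10). Of the 6 pathway genes, the difference was called for EPAS1 (-1.52), HIF1A (-1.04), NDRG1 (-1.37) and ADM (-2.63). The adjusted p of NDRG1, 0.057, was the highest of these 4. Groups of 2 libraries were too small to look for single outlying samples.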

How the results depend on the processing

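No gene called in the difference was called in the opposite direction under any of 23 alternatives. Those that changed only a threshold reused the main fit, so an opposite call could not occur there. They set both ends of the share of calls kept, 58.3% with a 2-fold minimum and 100% with adjusted p alone. Refits that left out no library kept 66.5%, with log2(RPKM + 1), to 99.6%, with replicate blocks. Under library size scaling 4203 genes were higher and 1512 lower in A549, 814 fell in A549, and 2068 rose and 5843 fell in H460. With log2(RPKM + 0.1) the counts were 4397 and 1595, with 800 falling in A549 and 2037 rising in H460, and with log2(RPKM + 1) they were 3419 and 1333, with 428 rising in A549, 1592 rising in H460 and 21 opposite. Sample quality weights left 338 and 145 called in A549 and 30 opposite. An adjusted p under 0.05 gave 508 and 194 in A549 and 36 opposite, adjusted p alone 772 falling in A549 and 136 opposite, and a 2-fold minimum 3051 differences (1683 higher, 1368 lower), 495 and 145 in A549, 2049 and 2437 in H460 and 31 opposite. The HIF target median of -1.14 was -0.86 by library size and log2(RPKM + 0.1) and -0.94 by log2(RPKM + 1), and the DNA replication median of 1.82 was 2.11 by library size and 2.04 by log2(RPKM + 0.1). Leaving out 1 library gave 3389 to 5773 differences, 1640 to 2952 higher and 1749 to 2847 lower, 203 to 1623 rising and 44 to 1269 falling in A549, 17 to 142 opposite, a HIF target median of -1.45 to -0.86 and a DNA replication median of 1.33 to 2.16. A lone library was then assumed to vary like the other groups.

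The labels tie the replicate numbers to no shared batch or day, and the libraries were not treated as paired. Deviations of same-numbered libraries correlated at 0.307 between the A549 groups, 0.083 between the H460 groups and -0.055 to 0.083 otherwise. With a replicate block within each line 3049 genes were higher and 2788 lower, with 757 falling in A549 and 121 opposite, and with a block shared by both lines 2864 and 2664. For the named genes 112 alternative values lost a call and 110 gained one. HSPA8, a chaperone that was not called, turned from -0.76 to 0.86 without A549 normoxia replicate 1 and to -1.51 without replicate 2 (levels of 2327 and 452 CPM in these libraries), and CHGA, a secretory granule gene near 0 in A549, from -0.21 to 0.98 with log2(RPKM + 1). The cause of these changes was not tested. With 2 libraries per group the median SE of the difference was 0.27.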
